A study of Mus musculus with 16 samples.

Results

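Gene expression in the periaqueductal gray was compared between naive mice labelled RGSz1 knockout and naive wild-type mice, across all genes with enough counts to test. The periaqueductal gray is the midbrain region around the cerebral aqueduct, from which descending pathways that dampen pain are driven and on which opioids act. The comparison used 8 of the 16 polyA RNA sequencing libraries of the series, chosen by their titles: 4 libraries labelled RGSz1 KO and naive (KO_Naive) and 4 labelled wildtype and naive (WT_Naive). The other 8 libraries came from mice of the same 2 genotype labels labelled morphine (KO_Morphine and WT_Morphine, 4 each), and are used here as a second set of samples for the same genotype difference. Each library held RNA pooled from tissue punches of 2 male mice (4 punches of 14 gauge), and the labels call the libraries biological replicates. The labels give no strain, age, exons deleted or origin of the wild-type mice, and say nothing of whether the genotypes were littermates.

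RGSz1 is the protein made from Rgs20. RGS proteins bind the active alpha subunit of a heterotrimeric G protein and speed up the hydrolysis of its GTP, which ends the signal of receptors such as the opioid receptors. RGSz1 belongs to the RZ group of this family, with the products of Rgs17 and Rgs19, and is known for acting on the alpha subunit encoded by Gnaz. The series' title ties RGSz1 to opioid analgesia and to the Wnt/beta-catenin pathway, in which Wnt proteins keep beta-catenin from being degraded and so alter the transcription of target genes.

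The total count over genes was 27.7 to 55.0 M (mega counts) in KO_Naive and 26.5 to 50.2 M in WT_Naive libraries, so depth did not separate the groups. Of the 38924 genes in the files 18111 were tested. Levels are given as CPM (TMM-scaled counts per mega counts), and differences as log2 fold changes of KO_Naive over WT_Naive with their standard error. A gene was called where the Benjamini-Hochberg adjusted p of edgeR's quasi-likelihood test was under 0.05.

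Rgs20 itself showed no decrease in KO_Naive libraries. The gene (ENSMUSG00000002459.11) spans chr1:4909576-5070285 on the minus strand of GRCm38 where its first bases are shared with Atp6v1h, which runs in the opposite direction. Its level was 12.3, 11.9, 12.3 and 14.0 CPM in the 4 KO_Naive libraries, against 11.6, 13.0, 13.4 and 13.1 CPM in the 4 WT_Naive libraries. The groups overlapped. The log2 fold change was -0.02 ± 0.07 (adjusted p = 0.943, edgeR's quasi-likelihood test), and its 95% interval put the KO_Naive level between 89.1 and 109% of the WT_Naive level. A count per gene does not show which exons were read, and the kit does not mark strand, so the counts do not check the genotype label. Every direction between genotypes below is therefore a direction between labels, and the groups are called libraries labelled knockout and wild-type libraries.

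In the naive libraries 164 of 18111 genes were called (0.906%), 80 of them higher (0.442%) and 84 lower (0.464%) in the libraries labelled knockout. Most differences were small. The median log2 fold change was 0.32 over the 80 higher genes and -0.51 over the 84 lower ones, beside a median of -0.0034 over all tested genes. A difference above 2-fold was found for 45 called genes, 16 higher and 29 lower. Levels of the 2 groups did not overlap for 161 of the 164 called genes, and for 8.13% of all tested genes. The number called depended on single libraries: it was 100 without KO_Naive_1, 68 without KO_Naive_2, 83 without KO_Naive_3, 77 without KO_Naive_4, 178 without WT_Naive_1, 80 without WT_Naive_2, 71 without WT_Naive_3 and 210 without WT_Naive_4. Of the 164 genes, 54 stayed called whichever naive library was left out, and of these 14 lie on chromosome 1.

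The called genes were unevenly spread over the chromosomes. Chromosome 1, which carries Rgs20, held 28 called genes among 1045 tested (2.68%), against 132 among 16843 (0.784%) on all other chromosomes. Chromosome 12 followed with 13 of 641 (2.03%) and chromosome 19 with 10 of 561 (1.78%).

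**Figure D1:**
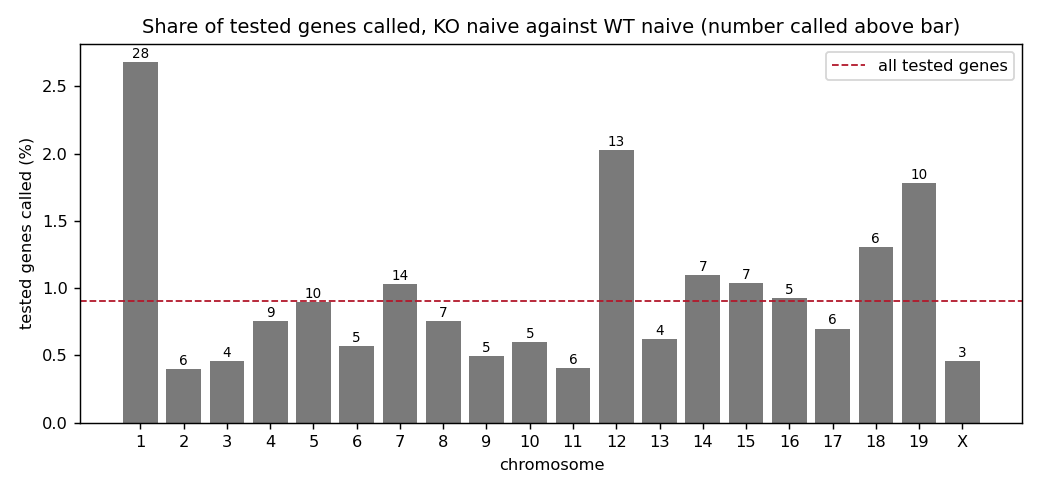
Share of tested genes called in KO_Naive against WT_Naive libraries, in percent, for each chromosome, with the number called above each bar. The dashed line is the share over all tested genes, 0.906%. Chromosomes 1, 12 and 19 have the highest bars.

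Called genes on chromosome 1 lay mostly in the part of it that carries Rgs20. The called gene nearest to Rgs20, Adhfe1, lies 4.48 Mb away, and 18 tested genes, Rgs20 included, lie nearer. That set of 18 ends at the nearest called gene, so its 0 calls follow from how it was drawn. Within 10 Mb of Rgs20 6 of 42 tested genes were called (14.3%), between 10 and 50 Mb 12 of 175 (6.86%), between 50 and 100 Mb 7 of 301 (2.33%), and beyond 100 Mb 3 of 527 (0.569%). The limits at 50 and 100 Mb were chosen after the positions were seen. The count within 10 Mb was 4 without WT_Naive_2 and 5 or 6 without any other naive library. Oprk1, the kappa opioid receptor gene, lies 0.518 Mb from Rgs20 and was not called. Its level was 29.9, 24.3, 30.2 and 22.7 CPM in libraries labelled knockout, against 22.5, 16.9, 20.8 and 19.5 CPM in wild-type libraries, so every library labelled knockout was above every wild-type library (log2 fold change 0.43 ± 0.11, adjusted p = 0.0755, edgeR's quasi-likelihood test).

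Of the 6 called genes within 10 Mb, Adhfe1, Mcmdc2 and Prex2 were lower and Vxn, Lactb2 and the predicted gene Gm9947 higher. They lie 4.48 to 9.68 Mb from Rgs20. Mcmdc2 (chr1:9908638-9942085), a gene related to DNA helicase subunits that mice need for meiotic recombination, had 0.108, 0.164, 0.216 and 0.11 CPM in libraries labelled knockout, against 2.78, 3.15, 2.61 and 2.75 CPM in wild-type libraries. Over each group this was 24 counts against 480, a ratio of wild type over knockout of 20.2 (95% counting interval 13.4 to 31.9; log2 fold change -4.29 ± 0.35, adjusted p = 2.47e-06). Adhfe1 (chr1:9547948-9580673), a mitochondrial enzyme that oxidises hydroxybutyrate, had 13.1, 11.2, 10.7 and 12.7 CPM against 19.9, 22.1, 19.3 and 21.4 CPM in wild-type libraries (log2 fold change -0.79 ± 0.08, adjusted p = 2.74e-05). The 2 groups stood well apart for each of these genes.

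Vxn (chr1:9601199-9627143), the gene of vexin, which promotes neuronal differentiation in frog embryos, went the other way although it lies next to Adhfe1. It had 45.4, 48.3, 47.2 and 51.2 CPM in libraries labelled knockout, against 35.2, 28.9, 33.4 and 32.7 CPM in wild-type libraries (0.56 ± 0.06 on the log2 scale, adjusted p = 1.64e-05). Lactb2, a mitochondrial endoribonuclease, had 19.3, 18.9, 19.0 and 21.4 CPM against 15.4, 14.1, 13.1 and 14.3 CPM in wild-type libraries (0.47 ± 0.07, adjusted p = 0.00134). Prex2, an activator of the GTPase Rac, was lower by a smaller step, at 62.7 to 71.7 CPM against 80.5 to 92.6 CPM (-0.34 ± 0.07, adjusted p = 0.03), and its call was lost without any one of 7 of the 8 naive libraries (adjusted p up to 0.109). The genes between and around these that were tested and not called, among them Atp6v1h (-0.05 ± 0.04) and Rb1cc1 (0.08 ± 0.03), had values of either sign. Besides Oprk1, Trpa1 and Sntg1 came close to the threshold, and the naive groups of neither overlapped. Trpa1 had -1.02 ± 0.25 (adjusted p = 0.0551) and Sntg1 0.16 ± 0.04 (adjusted p = 0.0679, edgeR's quasi-likelihood test).

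**Figure D2:**
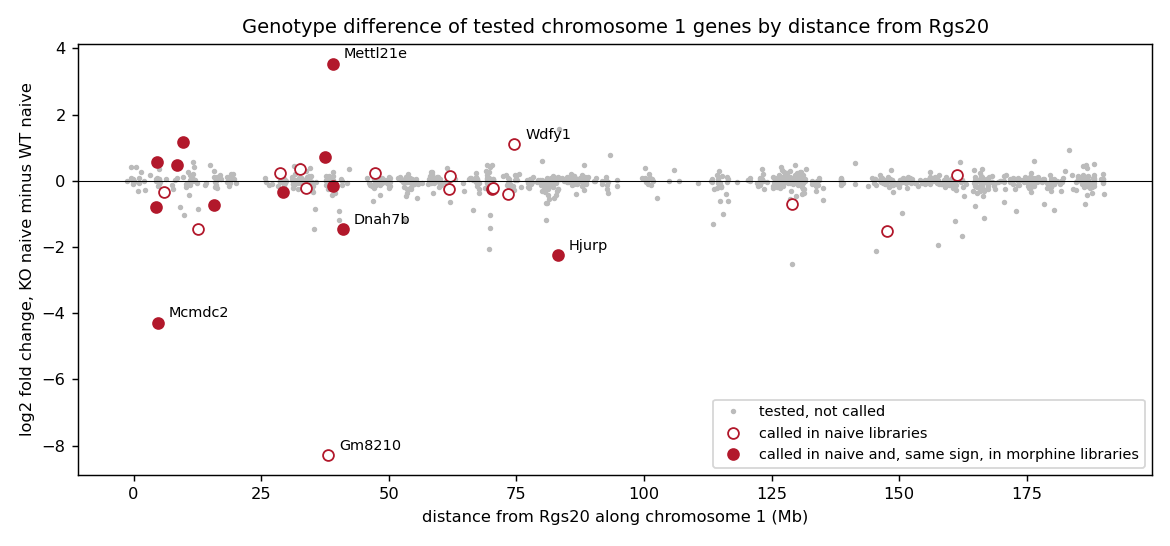
Log2 fold change of KO_Naive over WT_Naive libraries for each tested gene of chromosome 1, by its distance from Rgs20 in Mb. Grey dots were not called, open red circles were called in naive libraries, and filled red circles were called with the same sign in morphine libraries too. Called genes lie mostly within 100 Mb of Rgs20, in both directions, and Hjurp at 83.2 Mb is the one beyond 50 Mb that is filled.

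Further along the chromosome, the stretch from 40 to 50 Mb held 5 called genes of 37 tested (13.5%). Dnah7b (chr1:46066315-46373546), a heavy chain of the dynein motor of cilia, had the smallest adjusted p of all genes, with 12.4, 10.5, 12.4 and 12.2 CPM in libraries labelled knockout, against 30.8, 36.0, 33.2 and 31.2 CPM in wild-type libraries (log2 fold change -1.47 ± 0.08, adjusted p = 2.47e-09). Pantr1 (chr1:42590782-42694842), a long noncoding RNA beside the neural transcription factor gene Pou3f3, had 17.1, 18.1, 16.6 and 17.0 CPM against 10.4, 10.1, 10.4 and 10.9 CPM in wild-type libraries (0.72 ± 0.07, adjusted p = 8.93e-06). Neither gene's groups came close to touching. Mettl21e, of a family of protein methyltransferases, was near the limit of detection, with 66 counts over the libraries labelled knockout and 5 over the wild-type libraries (ratio 13.0, 95% counting interval 5.32 to 41.5; adjusted p = 0.00956). Ercc5, which encodes an endonuclease of DNA repair, differed only slightly, at 26.1 to 27.5 CPM against 28.4 to 31.0 CPM (-0.16 ± 0.04, adjusted p = 0.043), and lost its call without any one of 7 naive libraries (adjusted p up to 0.169). The fifth gene, the pseudogene Gm8210, is described with its sequence below.

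Leaving aside pseudogenes, predicted genes and called genes whose log2 CPM averaged below 1, Hjurp had the largest decrease. It lies at chr1:88262471-88277633, 83.2 Mb from Rgs20, and encodes the chaperone that places the histone variant CENP-A at centromeres. Its level was 40.9, 42.8, 41.7 and 40.0 CPM in libraries labelled knockout, against 201, 190, 195 and 196 CPM in wild-type libraries (41.4 ± 1.19 and 195 ± 4.63 CPM, mean ± SD, n = 4 each). That is a 4.72-fold lower level in the libraries labelled knockout (log2 fold change -2.24 ± 0.17, adjusted p = 1.64e-05), with almost no spread within either group. In the morphine libraries 3 of the 4 labelled knockout kept that level, with 40.4, 41.4 and 45.3 CPM, while KO_Morphine_3 had 81.4 CPM, and the wild-type libraries had 191 to 200 CPM. Wdfy1, an endosomal protein with a lipid-binding FYVE domain, lies between Rgs20 and Hjurp and was higher, with 74.1, 74.0, 59.1 and 74.2 CPM against 25.1, 26.5, 40.8 and 37.5 CPM (1.11 ± 0.19, adjusted p = 0.0167). Its call was lost without KO_Naive_2, KO_Naive_4 or WT_Naive_2 (adjusted p up to 0.0623).

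On chromosome 19 a group of 3 neighbouring genes was higher in the libraries labelled knockout. Ide (chr19:37268743-37337852) encodes insulin-degrading enzyme, a metalloprotease that breaks down insulin and amyloid beta. It had 120, 123, 124 and 124 CPM in libraries labelled knockout, against 57.2, 59.3, 58.6 and 59.7 CPM in wild-type libraries, a 2.09-fold difference (log2 fold change 1.07 ± 0.06, adjusted p = 6.12e-08). Btaf1 (chr19:36926079-37012752), an ATPase that takes the TATA-binding protein off DNA, had 67.7, 70.1, 73.9 and 71.7 CPM against 38.3, 40.4, 38.1 and 35.2 CPM (0.90 ± 0.07, adjusted p = 2.47e-06). Fgfbp3 (chr19:36917550-36919615), which binds fibroblast growth factors and releases them from the matrix, had 6.73, 6.93, 7.13 and 6.36 CPM against 4.66, 4.14, 4.15 and 4.08 CPM (0.68 ± 0.10, adjusted p = 0.00259). For all 3 genes the lowest of the 4 KO_Morphine libraries was KO_Morphine_1, with 89.9 CPM of Ide, 53.1 of Btaf1 and 4.93 of Fgfbp3. The other KO_Morphine libraries had 112 to 121 CPM of Ide, against 59.7 to 63.3 CPM in WT_Morphine libraries.

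Between 40 and 50 Mb on the same chromosome 7 of 126 tested genes were called, a stretch picked after its count was seen. Among them Pkd2l1, the channel gene of neurons that contact the cerebrospinal fluid, had 5.27, 9.58, 6.05 and 8.97 CPM in libraries labelled knockout, against 3.08, 1.94, 3.08 and 3.32 CPM in wild-type libraries (1.40 ± 0.26, adjusted p = 0.0188). Pdzd7, a scaffold protein of sensory hair cells, had 13.9 to 15.3 CPM against 8.65 to 9.62 CPM (0.67 ± 0.14, adjusted p = 0.033). Pyroxd2, a mitochondrial oxidoreductase-like protein, had 2.93 to 3.79 CPM against 4.13 to 7.24 CPM (-0.75 ± 0.15, adjusted p = 0.0256). These calls were less firm than that of Ide. That of Pkd2l1 was lost without KO_Naive_2, KO_Naive_4, WT_Naive_2 or WT_Naive_3 (adjusted p up to 0.0643), that of Pyroxd2 without any of these 4 or KO_Naive_3 (up to 0.0993), and that of Pdzd7 without any naive library but WT_Naive_1 (up to 0.11).

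**Figure D3:**
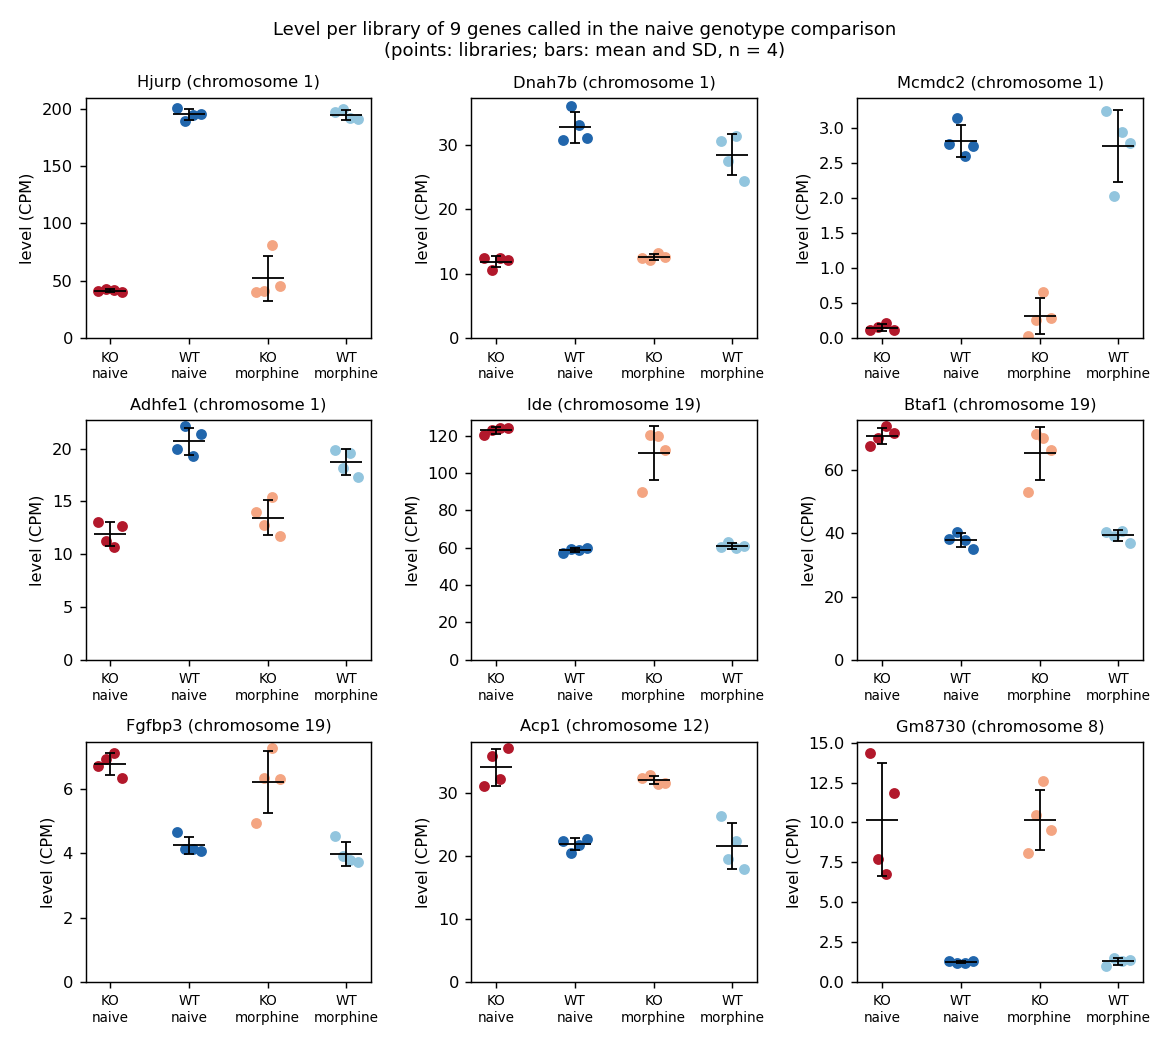
Level in CPM of 9 called genes in each library. Points are libraries, and bars are the mean and SD of the 4 libraries of a group; the axes start at 0. In each panel the 4 KO_Naive libraries stand clear of the 4 WT_Naive libraries, and the morphine libraries show the same order, with KO_Morphine_3 apart for Hjurp and KO_Morphine_1 apart for Ide, Btaf1 and Fgfbp3.

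On chromosome 12 the stretch from 20 to 30 Mb held 5 called genes of 42 tested (11.9%). Adi1 (chr12:28675231-28682175), an enzyme of the pathway that recycles methionine, had 44.5, 34.1, 31.5 and 33.5 CPM in libraries labelled knockout, against 61.3, 55.8, 59.7 and 64.6 CPM in wild-type libraries (-0.74 ± 0.14, adjusted p = 0.03). Its call was lost without any naive library but KO_Naive_1 (adjusted p up to 0.108). The pseudogene Gm6969 had 1.19 to 1.67 CPM against 4.58 to 6.76 CPM (-1.92 ± 0.21, adjusted p = 0.000144), and the predicted gene Gm9866 34.3 to 41.2 CPM against 26.7 to 28.3 CPM (0.45 ± 0.08, adjusted p = 0.0107). Both kept their calls without any one naive library.

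Zfp125, annotated as a zinc finger pseudogene, and Gm10478, which lies inside it, were higher (1.18 ± 0.24 and 1.45 ± 0.31 on the log2 scale, adjusted p = 0.0275 and 0.03). Reads of these overlapping genes may not be separable. The Zfp125 call was lost without any naive library but KO_Naive_1 or WT_Naive_4 (adjusted p up to 0.108), and that of Gm10478 without any but KO_Naive_1 or WT_Naive_1 (up to 0.102). Just beyond this stretch Acp1 (chr12:30893326-30911589), a small tyrosine phosphatase, had 31.0, 35.8, 32.1 and 37.1 CPM against 22.4, 20.5, 21.7 and 22.6 CPM in wild-type libraries (0.64 ± 0.09, adjusted p = 0.00134), and kept its call whichever naive library was left out.

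Pseudogenes, genomic copies of other genes that as a rule make no protein, held a larger share of called genes than protein-coding genes did. Of 831 tested pseudogenes 25 were called (3.01%), against 127 of 15113 protein-coding genes (0.84%), and 18 of these 25 differed by more than 2-fold, beside 20 of the 127. Each of the 25 matched a protein-coding transcript, at 83.1 to 99.5% identity with a median of 97.2%, and 17 of them at 95% or more. For 16 of the 25 such a match covered at least 90% of the pseudogene. Others were less close, such as 2610005L07Rik, aligned over 24.0% of its length. Sequencing reads from a close copy and from its coding relative differ at few bases, so the assignment of reads between them is uncertain. Each value given below for a pseudogene or its coding relative is uncertain in this way. How far this holds for the less close matches was not tested. For 21 of the 25 the closest coding gene was itself tested, and 2 of these coding genes were called. The difference had the opposite sign in the pseudogene and in its closest coding gene in 17 of the 21. These pairs share members: they hold 16 distinct coding genes, with Cdh11 in 4 pairs and Rpl29 and Rplp0 in 2 each, and for 12 of the 16 every pair was opposite. Pseudogenes that were not called were not paired in this way.

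The largest increase among pseudogenes was that of Gm8730, a copy of Rplp0, the gene of a ribosomal stalk protein. Another copy of Rplp0, Gm9625, was higher too. Over their whole match to Rplp0, Gm8730 was 98.7% and Gm9625 97.4% identical to it. The 90 bases below were chosen as the ungapped coding stretch of that length with the most positions at which either copy differs. They are bases 214 to 303 of the Rplp0 coding sequence (GENCODE M21 transcripts, GRCm38; Rplp0 on chromosome 5, plus strand, Gm8730 at chr8:102864845-102865798, minus strand, Gm9625 at chr13:67810246-67811200, plus strand), and are shown because a read from this window can be placed only by the bases in capitals. Capitals mark, in a pseudogene, the bases that differ from Rplp0, and in Rplp0 the bases at which either pseudogene differs.
Rplp0: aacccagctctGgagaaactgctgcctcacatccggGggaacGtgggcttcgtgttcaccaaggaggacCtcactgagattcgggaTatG
Gm8730: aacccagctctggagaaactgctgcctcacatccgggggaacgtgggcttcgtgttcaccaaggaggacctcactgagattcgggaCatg
Gm9625: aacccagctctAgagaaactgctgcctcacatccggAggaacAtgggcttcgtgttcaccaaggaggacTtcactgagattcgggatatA

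Gm8730 had 14.4, 7.71, 6.77 and 11.9 CPM in libraries labelled knockout, against 1.28, 1.20, 1.17 and 1.28 CPM in wild-type libraries (8.35-fold higher, log2 fold change 3.06 ± 0.23, adjusted p = 2.47e-06). Gm9625 had 14.1, 7.52, 6.20 and 9.30 CPM against 1.88, 2.08, 2.11 and 2.14 CPM (4.53-fold higher, 2.18 ± 0.22, adjusted p = 8.54e-05). Rplp0 moved the opposite way, with 47.3, 70.4, 66.2 and 66.0 CPM against 93.0, 102, 96.8 and 102 CPM in wild-type libraries (-0.66 ± 0.14), and just missed the threshold (adjusted p = 0.0519). The naive library with the highest level of both pseudogenes in CPM, KO_Naive_1, was the one with the lowest level of Rplp0. The groups did not overlap for any of the 3 genes.

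Copies of Rpl29, the gene of a protein of the large ribosomal subunit, went in the other direction. Bases 211 to 300 of the Rpl29 coding sequence are shown from the same source, with capitals as above. This stretch was chosen in the same way and holds 1 difference in Gm8210 and 2 in Gm14036 (Rpl29 on chromosome 9, Gm8210 at chr1:43189156-43189638 and Gm14036 at chr2:134803949-134804428, all on the plus strand).
Rpl29: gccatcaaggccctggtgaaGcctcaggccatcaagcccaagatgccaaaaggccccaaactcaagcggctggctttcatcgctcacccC
Gm8210: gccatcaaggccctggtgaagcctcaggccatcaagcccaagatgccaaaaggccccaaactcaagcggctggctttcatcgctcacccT
Gm14036: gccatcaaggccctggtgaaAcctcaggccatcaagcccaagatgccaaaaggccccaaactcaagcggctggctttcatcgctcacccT

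Gm8210 had 2 counts over all libraries labelled knockout and 842 over all wild-type libraries, a ratio of wild type over knockout of 426 (95% counting interval 118 to 3524). Per library this was 0.018, 0, 0 and 0.0219 CPM against 1.95, 6.49, 4.88 and 5.14 CPM. The spread of this gene in the morphine libraries enters the shared fit: KO_Morphine_1 had 3.10 CPM and WT_Morphine_2 had 0, each on the side of the other label. Its adjusted p was 0.047 (log2 fold change -8.29 ± 1.73), and the call was lost without any naive library but WT_Naive_1 (up to 0.169). Gm14036 had 0.263 to 0.487 CPM against 2.14 to 5.92 CPM (-3.43 ± 0.68, adjusted p = 0.0352), while Rpl29 had 4.31 to 4.98 CPM against 2.80 to 4.28 CPM and was not called (0.45 ± 0.14, adjusted p = 0.153). A further pair was Rpl34-ps1, with 0.373 to 0.65 CPM against 3.22 to 8.38 CPM (-3.54 ± 0.74, adjusted p = 0.0452), and its coding relative Rpl34, with 62.1 to 68.8 CPM against 40.7 to 59.0 CPM (0.46 ± 0.12, adjusted p = 0.095). The calls of Gm14036 and Rpl34-ps1 each failed without any one of 7 naive libraries, all but WT_Naive_1 for Gm14036 (adjusted p up to 0.125) and all but WT_Naive_4 for Rpl34-ps1 (up to 0.162).

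The remaining named pseudogenes were Eif3s6-ps2, a copy of the translation factor gene Eif3e, and Gm13123, a copy of Gcn1l1. Eif3s6-ps2 had 1 count over the libraries labelled knockout and 137 over the wild-type libraries (ratio of wild type over knockout 139, 95% counting interval 24.5 to 5516; adjusted p = 0.000173), whereas Eif3e averaged 55.4 CPM in libraries labelled knockout and 53.0 CPM in wild-type libraries. Gm13123 had 0.609 to 1.08 CPM against 0.0984 to 0.233 CPM (2.21 ± 0.31, adjusted p = 0.00108). Its coding relative Gcn1l1, an activator of the amino acid sensing kinase Gcn2, was higher as well, with 174, 146, 146 and 148 CPM against 124, 123, 123 and 126 CPM in wild-type libraries (0.31 ± 0.06, adjusted p = 0.0108). A further pseudogene, Gm11677, was read in wild-type libraries alone among the naive ones, with 0 counts in libraries labelled knockout and 44 in wild-type libraries. It was chosen for naming after its values were seen, and lost its call without any one of the libraries labelled knockout (adjusted p up to 0.0695).

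Among genes of meiosis, 2 gave further large differences at low or moderate levels, in opposite directions. Rec8, a cohesin subunit that holds sister chromatids together in meiosis, had 10.8, 23.2, 24.2 and 23.7 CPM in libraries labelled knockout, against 1.05, 1.86, 1.92 and 1.99 CPM in wild-type libraries (11.6-fold higher, log2 fold change 3.54 ± 0.67, adjusted p = 0.0314). The naive groups were far apart. In the morphine libraries it varied more, with 15.3, 21.6, 4.07 and 9.84 CPM against 3.96, 0.285, 2.44 and 0.114 CPM, and the naive call was lost without any naive library but KO_Naive_1 (adjusted p up to 0.106). Sycp1, which spans the paired chromosomes in the synaptonemal complex, had 1 count over the libraries labelled knockout and 266 over the wild-type libraries (ratio of wild type over knockout 269, 95% counting interval 47.9 to 10673; adjusted p = 0.0107). It was also at 0 in WT_Naive_1, so the groups overlapped there, and its call was lost without KO_Naive_1 or KO_Naive_2 (adjusted p up to 0.0778). Of the 34 tested genes on the list of meiosis and centromere genes these were the 2 called, 1 higher and 1 lower. Over all tested genes 0.906% were called. The median log2 fold change of the list was -0.04. Of the 34, 5 had an unadjusted p under 0.05 (edgeR's quasi-likelihood test), beside 12.9% of all tested genes. Limma-voom called neither Rec8 nor Sycp1. Mcmdc2 is not on that list.

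Among the other higher genes, Ddit4l and Rasgrp3 kept their calls without any one naive library. Rasgrp3 lost its call in a fit of the compared groups only. Ddit4l, an inhibitor of the growth kinase complex mTORC1, had 5.57, 6.04, 6.92 and 5.44 CPM in libraries labelled knockout, against 2.78, 4.27, 3.81 and 3.89 CPM in wild-type libraries (0.68 ± 0.12, adjusted p = 0.0107). Rasgrp3, an activator of Ras, had 21.1, 26.0, 26.3 and 23.3 CPM against 16.0, 14.8, 19.9 and 18.2 CPM (0.48 ± 0.08, adjusted p = 0.00863). Tbc1d4, which restrains the movement of glucose transporters to the cell surface, had 32.8 to 36.0 CPM against 19.1 to 28.0 CPM (0.60 ± 0.11, adjusted p = 0.0204). Ninj2, an adhesion protein, had 2.45 to 3.70 CPM against 1.01 to 1.89 CPM (1.00 ± 0.18, adjusted p = 0.0113), and Banp, a nuclear DNA-binding protein, 23.7 to 30.5 CPM against 15.7 to 20.9 CPM (0.52 ± 0.11, adjusted p = 0.0313). In the morphine libraries Banp had a log2 fold change of -0.06 ± 0.11 (adjusted p = 0.9). The calls of Ninj2, Tbc1d4 and Banp did not hold through every leave-out. That of Ninj2 was lost without KO_Naive_2 or KO_Naive_4 (adjusted p up to 0.0552). That of Tbc1d4 was lost without KO_Naive_2, 3 or 4 or WT_Naive_2 or 3 (up to 0.0749). That of Banp was lost without KO_Naive_1, 2 or 3 or WT_Naive_2, 3 or 4 (up to 0.0983).

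Among the other lower genes, Ntn4 and Trappc6a held their calls whichever naive library was left out. Trappc6a lost its call in a fit with the replicate number as a block. Ntn4, a netrin that binds laminins of the basement membrane, had 10.1, 9.65, 10.2 and 10.7 CPM in libraries labelled knockout, against 15.5, 14.6, 17.2 and 14.2 CPM in wild-type libraries (-0.60 ± 0.08, adjusted p = 0.000669). Trappc6a, part of a complex that tethers transport vesicles, had 3.73, 3.96, 3.60 and 3.84 CPM against 4.62, 6.35, 5.69 and 5.66 CPM (-0.57 ± 0.10, adjusted p = 0.0113). Pappa, a protease that frees insulin-like growth factors from their binding proteins, had 4.40 to 5.33 CPM against 6.46 to 7.21 CPM (-0.49 ± 0.09, adjusted p = 0.0113), and lost its call without KO_Naive_2 (adjusted p = 0.0575). Naaa, the enzyme that breaks down the lipid mediator palmitoylethanolamide, had 19.6 to 22.6 CPM against 26.0 to 36.9 CPM (-0.53 ± 0.11, adjusted p = 0.0316), and lost its call without any naive library but WT_Naive_1 or WT_Naive_4 (up to 0.105).

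The other named lower genes were Avil, an actin-binding protein, Col6a5, a chain of collagen VI, Serhl, a hydrolase-like gene, and Iqgap2, a scaffold of the cytoskeleton. Avil had 1.33 to 2.24 CPM in libraries labelled knockout, against 2.78 to 5.86 CPM in wild-type libraries (-1.16 ± 0.26, adjusted p = 0.0462), and Col6a5 1.55 to 2.17 CPM against 2.78 to 5.55 CPM (-1.15 ± 0.26, adjusted p = 0.049). Serhl had 2.58 to 2.89 CPM against 3.28 to 4.65 CPM (-0.54 ± 0.11, adjusted p = 0.03), and Iqgap2 5.13 to 6.64 CPM against 6.98 to 8.62 CPM (-0.47 ± 0.11, adjusted p = 0.0452). None of the 4 groups of values overlapped, but none of the 4 calls held through every leave-out. Avil lost it without any naive library but WT_Naive_4 (adjusted p up to 0.134), Col6a5 without any but WT_Naive_1 or WT_Naive_4 (up to 0.17), Serhl without any but WT_Naive_2 (up to 0.11) and Iqgap2 without any but KO_Naive_1 or WT_Naive_4 (up to 0.172). In the morphine libraries Avil and Col6a5 had log2 fold changes of 0.11 and about zero, with adjusted p = 0.935 and 0.998. Iqgap2 had -0.07 ± 0.11 there (adjusted p = 0.892), and Serhl was called with the same sign (-0.76 ± 0.12, adjusted p = 0.00465, edgeR's quasi-likelihood test).

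Below a mean of 1 on the log2 CPM scale, Ceacam9 and Igsf23, both of the immunoglobulin superfamily and both on chromosome 7, had, in libraries labelled knockout against wild-type libraries, 78 counts against 17 (2.07 ± 0.46, adjusted p = 0.0412) and 3 counts against 68 (ratio of wild type over knockout 22.9, 95% counting interval 7.52 to 114, adjusted p = 0.0364). Without any naive library but WT_Naive_1 the call of Ceacam9 was lost (adjusted p up to 0.134), and without any but WT_Naive_1 or WT_Naive_4 that of Igsf23 (up to 0.124).

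Genes of opioid and G protein signalling were not called. Over the lists used here, edgeR called 0 of 18 tested RGS genes, 0 of 8 opioid receptor and peptide genes, 0 of 28 G protein subunits and 0 of 40 genes of opioid receptor signalling. With 0.906% of all genes called, lists of this size would hold few calls or none at that share. Their median log2 fold changes were -0.02, 0.014, -0.033 and -0.035, beside -0.0034 over all tested genes. At an unadjusted p under 0.05 the 4 counts were 2, 1, 7 and 7, where 2345 of all 18111 genes (12.9%) passed, DESeq2 called 1, 1, 2 and 2, and limma-voom none. The other RZ genes were among those not called. Rgs17 had 251 to 266 CPM in libraries labelled knockout, against 233 to 258 CPM in wild-type libraries (0.05 ± 0.04, adjusted p = 0.615), and Rgs19 13.4 to 14.5 CPM against 13.2 to 15.7 CPM (-0.06 ± 0.06, adjusted p = 0.692). Gnaz had 68.9 to 73.1 CPM against 69.7 to 78.4 CPM (-0.05 ± 0.04, adjusted p = 0.678), and Oprm1, the mu opioid receptor gene, 10.6 to 12.4 CPM against 10.8 to 12.7 CPM (-0.03 ± 0.09, adjusted p = 0.923).

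Wnt genes were not called either. Of 67 tested Wnt ligands, receptors and effectors edgeR called 0, with a median log2 fold change of -0.013, and of 23 Wnt target genes 0, with a median of -0.11 that was -0.01 without WT_Naive_2. At an unadjusted p under 0.05 the counts were 6 and 2, DESeq2 called 0 and 1, and limma-voom none. Ctnnb1, the gene of beta-catenin, had 460, 460, 475 and 475 CPM in libraries labelled knockout, against 441, 525, 502 and 463 CPM in wild-type libraries (-0.05 ± 0.05, adjusted p = 0.755). Axin2, a feedback inhibitor and target of the pathway, had 24.4, 20.7, 24.7 and 25.3 CPM against 19.8, 32.9, 28.8 and 20.3 CPM (-0.11 ± 0.16, adjusted p = 0.807). Its wild-type libraries lay on either side of those labelled knockout.

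Immediate early genes, whose transcription follows neuronal activity within minutes, held 2 called genes of 28 tested, both lower, beside 0.464% of all genes, with a list median of -0.17. At an unadjusted p under 0.05 (edgeR's quasi-likelihood test) the list held 11 genes, beside 12.9% of all tested genes. Of the 28 genes 8 had a positive log2 fold change. Nr4a1, a nuclear receptor, had 9.15, 9.23, 9.01 and 9.08 CPM in libraries labelled knockout, against 12.4, 17.4, 17.4 and 10.7 CPM in wild-type libraries (-0.67 ± 0.14, adjusted p = 0.0387). Btg2, an inhibitor of cell proliferation, had 7.97, 5.90, 6.41 and 8.07 CPM against 9.65, 14.3, 13.0 and 8.85 CPM (-0.69 ± 0.14, adjusted p = 0.0208). For both genes the libraries labelled knockout were close together, and WT_Naive_2 and WT_Naive_3 were the high ones. Both calls were lost without WT_Naive_2, WT_Naive_3, KO_Naive_2 or KO_Naive_3, and that of Nr4a1 also without KO_Naive_1 or KO_Naive_4 (adjusted p up to 0.122 for Nr4a1 and 0.0851 for Btg2). Both were also lost in a fit of the compared groups only and in a fit with the replicate number as a block. That of Nr4a1 was lost too with a meningeal marker score as a covariate and with no filter on low counts. In the morphine libraries Btg2 had the opposite direction, with 10.4, 8.77, 10.0 and 9.43 CPM in libraries labelled knockout, against 7.98, 8.22, 7.12 and 8.44 CPM in wild-type libraries, and was not called (0.29 ± 0.14, adjusted p = 0.531). Its groups did not overlap there either, and its interaction had an unadjusted p of 0.000106 and an adjusted p of 0.143. Fos had 15.0, 13.8, 22.3 and 18.6 CPM against 13.5, 24.5, 25.6 and 10.8 CPM and was not called (-0.12 ± 0.26, adjusted p = 0.884).

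In the remaining lists of processes edgeR called 0 members: 0 of 23 glucocorticoid-induced genes (median log2 fold change -0.13), 0 of 23 genes of endoplasmic reticulum stress and folding (-0.023), 0 of 19 clock genes (0.035), 0 of 30 interferon-induced and antigen presentation genes (-0.33), 0 of 21 sterol synthesis genes (0.045), 0 of 26 neuropeptide precursors (-0.12) and 0 of 18 myelin and lipid synthesis genes (0.21). At an unadjusted p under 0.05 these 7 lists held 4, 4, 3, 10, 1, 3 and 2 genes, beside 12.9% of all tested genes. DESeq2 called 1 glucocorticoid-induced gene, 2 interferon-induced genes and 1 neuropeptide precursor and none of the others, and limma-voom none. Of the interferon-induced genes 4 of 30 lay above zero, and of the myelin and lipid synthesis genes 18 of 18. Xaf1, for one, had 5.45, 5.93, 5.48 and 6.12 CPM in libraries labelled knockout, against 7.10, 15.5, 17.8 and 10.8 CPM in wild-type libraries (-1.17 ± 0.28, adjusted p = 0.0753). Without WT_Naive_2 the interferon list's median was -0.05 and the myelin list's 0.09.

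Markers of some cell types differed between libraries. The summed level of 11 serotonin neuron markers, which mark the dorsal raphe next to the periaqueductal gray, was 353, 297, 179 and 420 CPM in libraries labelled knockout, against 932, 277, 334 and 658 CPM in wild-type libraries. The median log2 fold change of these markers was -0.79, and -0.39 without WT_Naive_1; 0 of 11 were called (1 at an unadjusted p under 0.05; DESeq2 and limma-voom 0). Tph2, the enzyme that starts serotonin synthesis in the brain, had 67.2, 57.9, 13.7 and 98.1 CPM against 262, 44.4, 62.5 and 175 CPM. The 10 meningeal fibroblast markers stood at 70.9 to 76.9 CPM in libraries labelled knockout, against 60.4 to 66.9 CPM in 3 wild-type libraries and 480 CPM in WT_Naive_2, and their median log2 fold change of -1.21 turned to 0.18 without that library. Fewer cells of a type and less RNA per cell cannot be told apart in such bulk samples.

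Noradrenaline and cholinergic markers were low in all libraries. The 4 tested noradrenaline neuron markers summed to 13.3 to 25.01 CPM in libraries labelled knockout, against 16.1 to 26.5 CPM in wild-type libraries, with 0 of 4 above zero and a median log2 fold change of -1.59. In a fit of the compared groups only the median was -0.28. That fit filtered genes anew, so its median may cover fewer of the 4 markers. Those of cholinergic and motor neurons summed to 12.6, 17.0, 20.6 and 11.7 CPM against 38.8, 15.1, 12.6 and 28.7 CPM, with 0 of 6 above zero and a median of -0.73, which was -0.37 without WT_Naive_1. EdgeR, DESeq2 and limma-voom called 0 markers of either list, and 0 and 1 had an unadjusted p under 0.05. The markers of all neurons summed to 6800 to 7315 CPM in libraries labelled knockout, against 6352 to 7498 CPM in wild-type libraries, those of astrocytes to 3634 to 3808 CPM against 3592 to 3956 CPM, and those of microglia to 246 to 274 CPM against 236 to 285 CPM. Dbh, which defines noradrenaline neurons, was at 0 to 0.108 CPM against 0 to 0.272 CPM. All 11 oligodendrocyte markers had a positive log2 fold change and 0 were called (2 at an unadjusted p under 0.05; DESeq2 and limma-voom 0); their median of 0.23 was 0.09 without WT_Naive_2, the library with the lowest sum, and 0.37 without WT_Naive_4. Of the 9 pericyte and smooth muscle markers 1 was called, Pdgfrb, the receptor that marks pericytes, with 23.6, 27.1, 26.1 and 22.4 CPM against 33.6, 36.0, 31.8 and 28.3 CPM (-0.39 ± 0.08, adjusted p = 0.021). Its call was lost without KO_Naive_1, KO_Naive_4, WT_Naive_1, WT_Naive_2 or WT_Naive_3 (adjusted p up to 0.0795). In the morphine libraries Pdgfrb had a log2 fold change of -0.007 ± 0.08 (adjusted p = 0.991, edgeR's quasi-likelihood test). The 9 markers summed to 202 to 242 CPM in libraries labelled knockout, against 187 to 301 CPM in wild-type libraries. Of the 9, 3 had a positive log2 fold change.

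**Figure D4:**
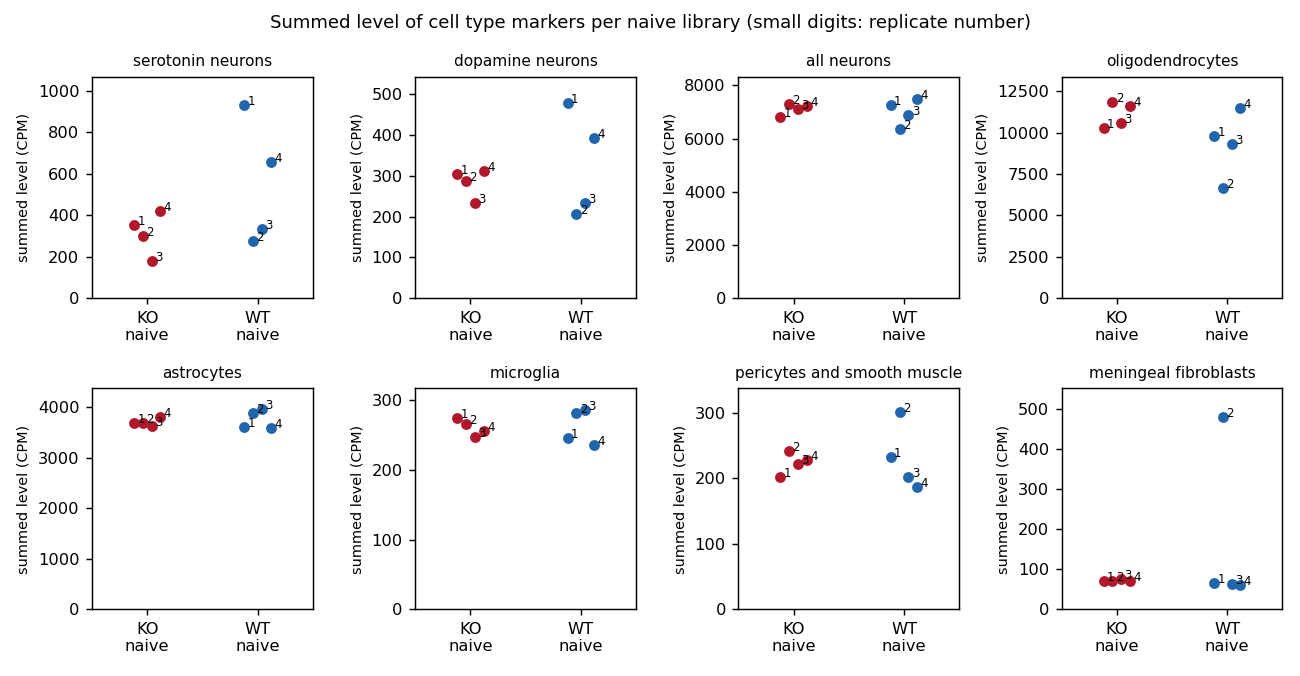
Summed level in CPM of the markers of 8 cell types in each naive library, KO_Naive left and WT_Naive right, with the replicate number beside each point and axes from 0. The serotonin and dopamine sums are highest in WT_Naive_1 and WT_Naive_4, and the meningeal sum is 480 CPM in WT_Naive_2 and at most 76.9 CPM elsewhere.

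The marker levels bear on the calls as follows. With the mean log2 CPM of the serotonin markers as a covariate 223 genes were called, among them 132 of the 164, and with that of the meningeal markers 121, among them 110 of the 164. Rgs20 had a log2 fold change of -0.04 and -0.02 in these 2 fits. Their part in the calls that were lost or gained was not tested further.

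The morphine libraries give the genotype difference in other animals, although they share the naive fit's estimate of spread. For most called genes their difference had the same direction. In them 96 of 18111 genes were called (0.53%), 46 higher (0.254%) and 50 lower (0.276%) in the libraries labelled knockout. Of the 164 genes called in naive libraries 135 had the same sign there (82.3%), against 46.1% of all tested genes, and 44 were called with the same sign, which is 26.8% of the 164 and 45.8% of the 96. KO_Morphine libraries had fewer counts over genes, 19.1 to 38.9 M with a mean of 27.4 M, against a mean of 42.8 M in KO_Naive libraries. WT_Morphine libraries had 28.4 to 53.9 M. The part of depth in the share called again was not tested. Fitted with only the groups compared, 24 genes were called in both with the same sign, and 100 of the 164 naive calls held. No gene was called in opposite directions. Of the 45 naive calls above 2-fold 44 had the same sign and 17 were called, and of the 119 below 2-fold 27 were called. On chromosome 1 5 of the 6 called genes within 10 Mb of Rgs20 were called in the morphine libraries too, 6 of the 12 between 10 and 50 Mb, 1 of the 7 between 50 and 100 Mb and 0 of the 3 beyond. Of the 54 naive calls that held without any one library 31 were called in the morphine libraries, and of the 110 that did not 13 were.

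**Figure D5:**
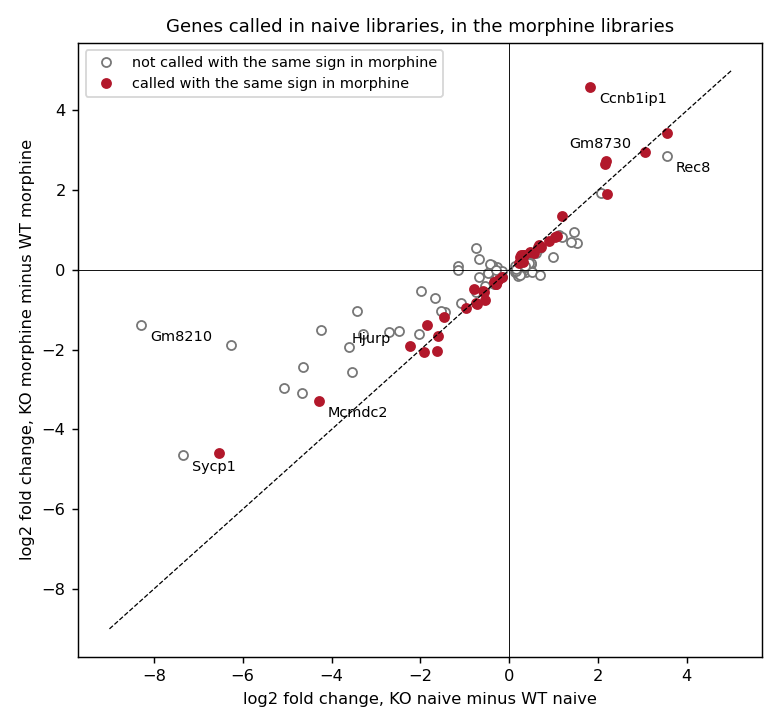
Log2 fold change of KO_Morphine over WT_Morphine libraries against that of KO_Naive over WT_Naive libraries for the 164 genes called in naive libraries. Filled points were called with the same sign in the morphine libraries, open points were not, and the dashed line marks equal values. Of the 164 points 135 lie in the lower left or upper right corner region; of the 119 genes below 2-fold in naive libraries 27 are filled.

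A difference between the naive and morphine genotype differences was tested for each gene as an interaction. EdgeR's quasi-likelihood test called 0 genes (0%), with a smallest adjusted p of 0.106; 2200 genes (12.1%) had an unadjusted p under 0.05, among them 67 of the 164. DESeq2 called 107 genes and limma-voom 0. The edgeR count was 56 without KO_Morphine_3, 16 without WT_Morphine_3, 1 without WT_Morphine_4 or WT_Naive_3 and 0 without any other library. A call in naive libraries and none in morphine libraries does not by itself show that a gene's difference depended on the drug.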

How the data were processed

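Each deposited file lists raw counts by gene for 1 polyA RNA library. The submitters' processing notes name HTSeq, limma and mm10. Not given in the sources used here are the aligner, the release of the annotation and whether strand was used. RNA was extracted with TRIzol and libraries made with the TruSeq v2 kit, per the labels' protocols. HTSeq's tallies of unassigned reads, 38.2 to 40.6% of the total, were left out.

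Symbols, positions and sequences came from GENCODE M21 on GRCm38 (37607 of 38924 identifiers matched). Genes passing filterByExpr (minimum count 10) were tested with edgeR 4.0.16 (R 4.3.3; TMM, robust quasi-likelihood) in 1 fit of all 16 libraries, a coefficient per group, with Benjamini-Hochberg adjustment; the common biological coefficient of variation was 0.0835. The procedure was tested on simulated data. No 2 replicates were one library deposited again (the chi-square between them was 3.72 or more per gene). Same-numbered naive libraries did not deviate together (correlations -0.116 to 0.040), so numbers were not used as pairs.

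The comparison's members and gene lists were chosen with earlier results of these data known. Named were the 15 largest called changes per direction (mean log2 CPM 1 or above, no pseudogenes or predicted genes), Rgs20, called members of the lists, up to 5 called genes of any 10 Mb bin with at least 5 called genes and 10% of its genes called, and the largest called changes among lower genes and pseudogenes. Others are described as chosen later; a few results were left unreported here. Alternatives were DESeq2 1.42.0 (size factors; Wald test), limma-voom 3.58.1, other filters, only the compared groups, a replicate block, 1 surrogate variable (sva 3.50.0), marker scores as covariates, and each library left out. Ratios of summed counts have exact 95% intervals that cover counting error only.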

Additional observations from a re-analysis of the deposited data

Results flagged for a closer look

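Over 132 groups of 4 libraries, 1 library stood apart from the other 3 in 7 (gap to the nearest library over 0.829 of the range), where chance alone gives about 1 in 20. Rec8 was 10.8 CPM in KO_Naive_1 (median of the other 3 libraries 23.7 CPM) and 1.05 CPM in WT_Naive_1 (1.92 CPM). Wdfy1 was 59.1 CPM in KO_Naive_3 (74.1 CPM), Dnah7b 10.5 CPM in KO_Naive_2 (12.4 CPM), and Fgfbp3 4.66 CPM in WT_Naive_1 (4.14 CPM). The summed meningeal fibroblast markers were 76.9 CPM in KO_Naive_3 (71.5 CPM) and 479.9 CPM in WT_Naive_2 (63.4 CPM).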

How the results depend on the processing

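Of 46 named genes called in the naive comparison, 19 kept their call under every alternative that tested them, 24 lost it under an alternative other than leaving out a library, 3 lost it only when a library was left out, and 0 changed sign. Over all 164 calls, 47 held under all 18 alternatives that tested them. DESeq2's Wald test called 197 genes higher and 179 lower in naive libraries and 90 higher and 112 lower in morphine libraries, with 86 called in both with the same sign and 107 for the interaction; it called all 164. The replicate block gave 45 higher and 43 lower in naive libraries (73 of these 88 among the 164), 30 higher and 26 lower in morphine libraries, and 29 shared with the same sign. In a fit of the compared groups only, 24 were shared, and the naive fit called 100 of the 164. Named genes that lost their call in that naive fit were Avil, Banp, Btg2, Ceacam9, Col6a5, Ercc5, Iqgap2, Naaa, Nr4a1, Pdgfrb, Pyroxd2, Rasgrp3 and Serhl. The interaction count was 29 with 1 surrogate variable, 1 with the meningeal score as a covariate and 1 with no filter on low counts. With each library left out in turn, naive counts ran from 33 to 100 higher and 34 to 110 lower, morphine counts from 24 to 53 higher and 25 to 61 lower, the interaction count from 0 to 56, and the Rgs20 difference in naive libraries (log2 fold change) from -0.0727 to 0.0114, above zero at 0.0114 without KO_Naive_2 and 0.0074 without WT_Naive_3. The cause of these shifts was not tested. DESeq2's size factors, limma-voom, a stricter filter of 1 CPM in 8 libraries and the serotonin score left the naive counts within 1.5 times. How far depth limits the calls of genes with few counts was not tested.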

Other observations

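Several called genes that the naming rule left out encode receptors or channels of neural signalling; they were chosen after their values were seen. Ntsr2, a neurotensin receptor of astrocytes, had 132 to 159 CPM in libraries labelled knockout, against 184 to 194 CPM in wild-type libraries (log2 fold change -0.39 ± 0.08, adjusted p = 0.0316, edgeR's quasi-likelihood test), and the potassium channel gene Kcnn2 33.9 to 41.5 CPM against 43.9 to 49.9 CPM (-0.34 ± 0.08, adjusted p = 0.0484). Both lost the call with any one of 6 libraries left out. Esr1, an oestrogen receptor, had 9.56 to 11.1 CPM against 11.9 to 14.0 CPM (-0.34 ± 0.07, adjusted p = 0.0321), and the adenosine receptor gene Adora2b 4.83 to 5.61 CPM against 3.55 to 4.32 CPM (0.39 ± 0.09, adjusted p = 0.0389). These 2 lost the call with any one of 7 libraries left out.

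Firmer but small differences were those of Cisd2, a protein of the endoplasmic reticulum and mitochondria, with 60.7 to 64.2 CPM in libraries labelled knockout, against 48.8 to 53.8 CPM in wild-type libraries (0.30 ± 0.04, adjusted p = 0.000669), and of Acadl, an enzyme of fatty acid oxidation on chromosome 1, with 30.7 to 32.7 CPM against 35.8 to 39.5 CPM (-0.25 ± 0.04, adjusted p = 0.00134). Both kept their naive call whichever library was left out. In the morphine libraries the log2 fold change of Cisd2 was 0.21 ± 0.04 (adjusted p = 0.0219) and that of Acadl -0.08 ± 0.04 (adjusted p = 0.505).

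On chromosome 7 between 10 and 20 Mb, a stretch chosen after its count was seen, 7 of 123 tested genes were called, 1 higher and 6 lower, and 1 of them was called in the morphine libraries. Ccnb1ip1 on chromosome 14, a regulator of meiotic crossovers, had 1.15 to 1.38 CPM in KO_Naive libraries against 0 to 0.54 CPM in WT_Naive libraries (1.81 ± 0.38, adjusted p = 0.0297), and 1.17 to 2.06 CPM in KO_Morphine libraries against 0.03 to 0.11 CPM in WT_Morphine libraries (4.58 ± 0.53, adjusted p = 0.000186). Its naive call was lost with any one of 5 libraries left out (adjusted p up to 0.0927).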
